A study of Danio rerio with 8 samples.

Results

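The genes described here encode the small leucine-rich proteoglycans of the corneal stroma. The 10 members were lum, kera, dcn, bgna, bgnb, fmoda, fmodb, ogna, prelp and epyc, chosen as a gene family by their zebrafish names, and an identifier was found for all 10 among the 32520 genes of the count table. The symbol table gives both biglycan copies as BGN and both fibromodulin copies as FMOD. These 4 genes are therefore given by identifier, and which copy is a or b was not resolved. RNA was sequenced from corneas of wild type zebrafish of the AB background, with 4 control libraries from untreated fish that were anesthetized and handled alike, and 4 wounded libraries from fish with an abrasion of both corneas, all collected 1.5 h later. Each library held 6 corneas of 3 fish pooled, so that the library is the replicate. Libraries of the same number came from 1 tank and 1 age. Tank 1 held fish of 180 days, tank 2 of 145, tank 3 of 148 and tank 4 of 183. The authors left wounded library 1 out of their comparison, so the comparisons below set the 4 controls against wounded libraries 2 to 4, except where all 8 are said to be used. Of these, wounded libraries 2 and 3 held younger fish (145 and 148 days) and wounded library 4 older fish (183 days). Younger fish thus weigh more in the wounded than in the control libraries.

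Small leucine-rich proteoglycans are secreted proteins built of leucine-rich repeats that bind fibrillar collagen and limit the width and spacing of the fibrils. In the cornea, where regular spacing of thin fibrils keeps the tissue transparent, they are made mainly by keratocytes, the cells of the stroma. In mammals the lumican, keratocan, fibromodulin and osteoglycin proteins can carry keratan sulfate, whereas decorin and biglycan carry chondroitin or dermatan sulfate. Decorin, biglycan and fibromodulin of mammals also bind TGF-beta. On the RefSeq assembly GRCz12tu the genes epyc, kera, lum and dcn directly follow one another, and ogna is the first of a row that goes on with omd, aspn and ecm2.

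Library totals lay between 39472162 and 44250662 counts. Wounded library 1 stood apart from the other 7. Its most abundant gene took 2.42% of its counts against 3.54 to 4.52% elsewhere, and its corneal epithelium markers (24 genes) summed to 74463 CPM against 103977 to 118141. CPM give the counts of a gene relative to the library total, scaled by TMM over all 8 libraries. The lens markers (14 genes) summed to 0.224 to 1.20 CPM, so that lens RNA was near the limit of detection, whereas 31 retina markers summed to 1772 to 3427 CPM and 32 cartilage and bone markers to 2083 to 5514 CPM. In such bulk samples fewer cells of a type and less RNA per cell cannot be told apart.

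All but 1 of the 10 genes were readily detected in control corneas. The members together took 0.208 to 0.270% of the counts of a control library and 0.241 to 0.273% of those of a wounded one. Reads of dcn were 62.1 to 67.1% of the members' reads in control libraries. Reads depend on transcript length, for which no value was at hand, so levels are compared between libraries and not between genes.

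The stromal keratan sulfate gene kera, which encodes keratocan, was at 140.3, 180.4, 170.0 and 148 CPM in control libraries 1 to 4. In wounded libraries 2 to 4 it was at 164, 166 and 149 CPM. The wounded values lay inside the control range. Mutations of the human gene flatten the cornea (cornea plana). The log2 fold change of kera was -0.01 (95% interval -0.29 to 0.27, edgeR adjusted p = 0.982). For dcn, which encodes decorin, the control libraries held 1343, 1530.0, 1739.8 and 1785 CPM and the wounded ones 1462, 1621 and 1732. Here too the groups overlapped over nearly their whole range (log2 fold change -0.0042, 95% interval -0.28 to 0.27, edgeR adjusted p = 0.992). The FMOD copy ENSDARG00000044895, which encodes fibromodulin, had 275, 316, 377 and 322 CPM in controls and 329, 394 and 297 CPM after abrasion. The ranges overlapped (log2 fold change 0.07, 95% interval -0.25 to 0.38, edgeR adjusted p = 0.847).

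**Figure D1:**
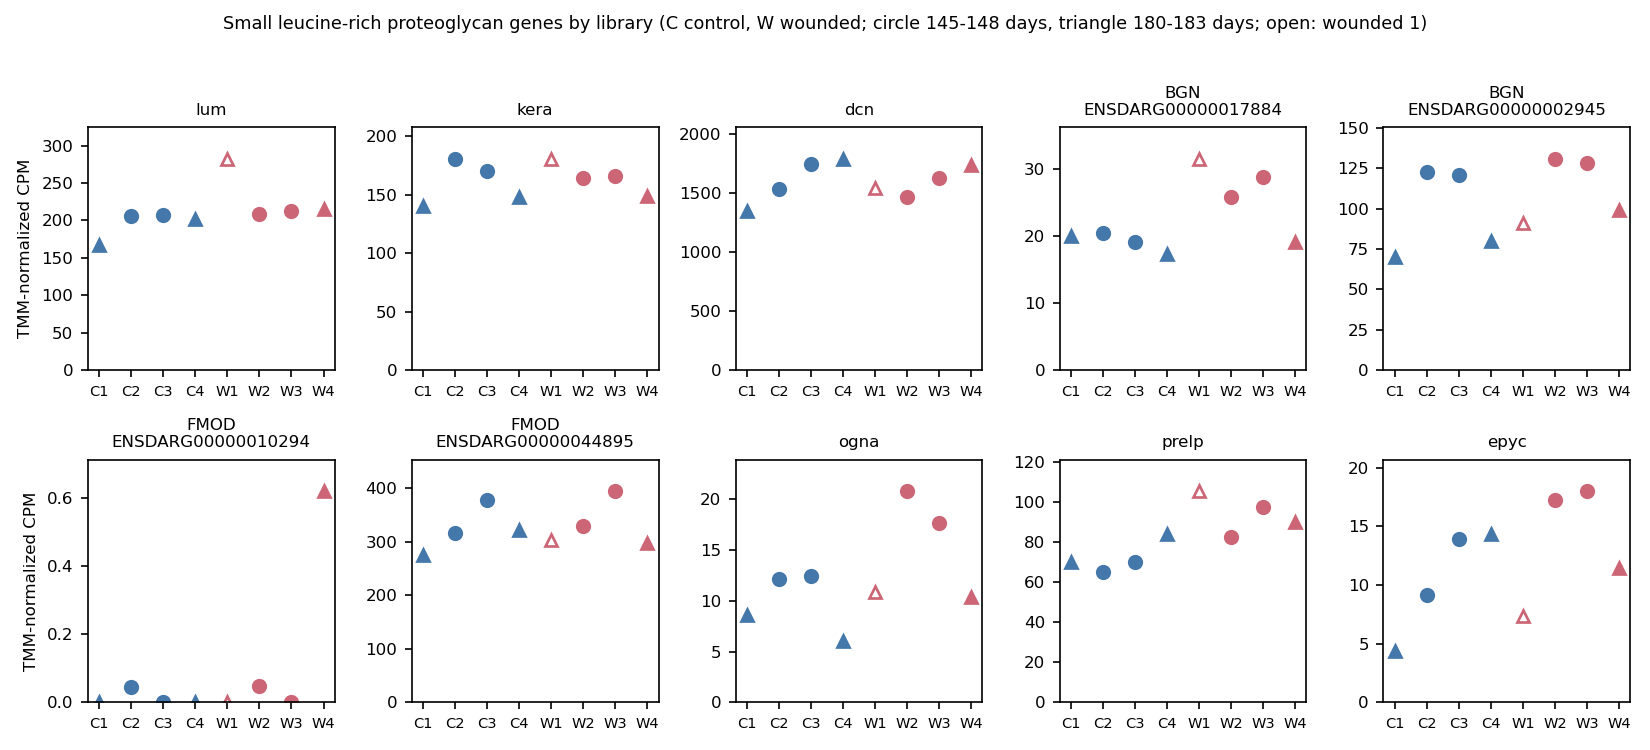
TMM-normalized CPM of the 10 genes (vertical axes, starting at 0) in each library (C1 to C4 control, blue; W1 to W4 wounded, red; circles 145 or 148 days, triangles 180 or 183 days; open symbol, wounded 1). The kera, dcn and FMOD ENSDARG00000044895 points of both conditions overlap, wounded 1 is highest for lum at 282 CPM, and FMOD ENSDARG00000010294 is near 0 in all libraries but W4.

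The lum gene encodes lumican, a partner of keratocan whose loss clouds the mouse cornea. Its level was 167, 207, 207 and 202 CPM in control libraries 1 to 4 and 209, 213 and 215 CPM in wounded libraries 2 to 4. These groups did not overlap, but the lowest wounded value was only just above the highest control value. The log2 fold change was 0.11 (95% interval -0.15 to 0.37, edgeR adjusted p = 0.674). Control library 1 was the low one of its group, and wounded library 1, at 282 CPM, was above all others. Of the 9 genes tested, lum was the only one whose 2 groups did not overlap, whereas 17.5% of all 18935 genes tested did not (8.51% as higher).

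The prelp gene encodes a relative of lumican rich in proline and arginine. Its CPM were 69.7, 65.2, 70.1 and 83.9 in controls and 82.2, 97.6 and 89.9 in wounded libraries 2 to 4. Only control library 4 reached into the wounded range. The log2 fold change was 0.31 (95% interval 0.02 to 0.59, edgeR unadjusted p = 0.0392 and adjusted p = 0.242). The BGN copy ENSDARG00000017884, which encodes a biglycan, was at 19.98, 20.5, 19.0 and 17.3 CPM in controls and at 25.8, 28.7 and 19.1 CPM after abrasion. Wounded libraries 2 and 3 lay above all controls and wounded library 4 among them (log2 fold change 0.34, 95% interval -0.02 to 0.71, edgeR adjusted p = 0.298). The other BGN copy, ENSDARG00000002945, was at 70.3, 123, 121 and 80.3 CPM in controls and at 131, 128 and 99.2 CPM after abrasion. Its control libraries fell into a low and a high pair. Wounded libraries 2 and 3 lay above all controls and wounded library 4 between the pairs (log2 fold change 0.27, 95% interval -0.19 to 0.73, edgeR adjusted p = 0.538). With age class as a covariate the log2 fold change was 0.20 (edgeR adjusted p = 0.404).

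The ogna gene encodes osteoglycin, also called mimecan, which is found in stroma, bone and other connective tissue. Its CPM were 8.64, 12.1, 12.4 and 6.05 in controls and 20.8, 17.7 and 10.3 in wounded libraries 2 to 4. Wounded libraries 2 and 3, of younger fish, were above every control. Wounded library 4, of older fish, was not, but lay above the controls of older fish (8.64 and 6.05 CPM). The log2 fold change was 0.72 (95% interval 0.08 to 1.36, edgeR unadjusted p = 0.0302 and adjusted p = 0.215). With age class as a covariate the log2 fold change was 0.58 (edgeR unadjusted p = 0.00801 and adjusted p = 0.112). The tank was also taken as a block, which compares each wounded library with the control of its own tank. Control library 1 had no partner in that fit, which thus rests on tanks 2 to 4. There ogna rose (log2 fold change 0.68, edgeR adjusted p = 0.0378). That fit called 5.22% of all genes, and 2.71% rose. When wounded library 1 entered the blocked fit, ogna had a log2 fold change of 0.60 and an edgeR adjusted p of 0.0532. The epyc gene encodes epiphycan, known in mammals from growth plate cartilage. It was at 4.38, 9.17, 13.9 and 14.4 CPM in controls and at 17.2, 18.0 and 11.4 CPM after abrasion, with control library 1 lowest of all (log2 fold change 0.56, 95% interval -0.20 to 1.33, edgeR adjusted p = 0.421).

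The FMOD copy ENSDARG00000010294 had too few counts for the main test. It entered only the fits by DESeq2 and with every gene with a count, where its value after abrasion rests mainly on wounded library 4. It had 0, 2, 0 and 0 counts in control libraries and 0, 2, 0 and 26 counts in wounded libraries 1 to 4. All libraries but wounded 4 were under 3 counts, or 0.0724 CPM at the mean depth, so no fold is given. Its 26 counts in wounded library 4 make 0.620 CPM.

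Of the 9 genes tested, none passed an adjusted p of 0.05 in edgeR, where 1.37% of all genes tested passed (0.734% higher and 0.634% lower). At an unadjusted p under 0.05 there were 2 (ogna and prelp) among the 9, beside 18.5% of all genes. Without control library 1 neither was under it (edgeR unadjusted p = 0.0702 for ogna and 0.0732 for prelp). For ogna it was also above 0.05 without control library 4 or wounded library 2 or 3 (edgeR, 0.0642 to 0.146). For prelp it was so without control library 2 or 3 or wounded library 3 or 4 (edgeR, 0.0735 to 0.132). None of the 9 passed in DESeq2, where 9.29% of the 14191 genes with an adjusted p did. The median log2 fold change of the 9 was 0.27, beside 0.01 for all genes tested. The gene at this median, BGN ENSDARG00000002945, was at 0.20 with age class as a covariate and at 0.15 with the tank as a block. The wounded libraries compared hold more of the younger fish, and the part of age in the median was not tested. For 7 of the 9 genes the 95% interval lay inside a 2-fold change in either direction. For ogna and epyc it reached beyond a 2-fold rise.

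**Figure D2:**
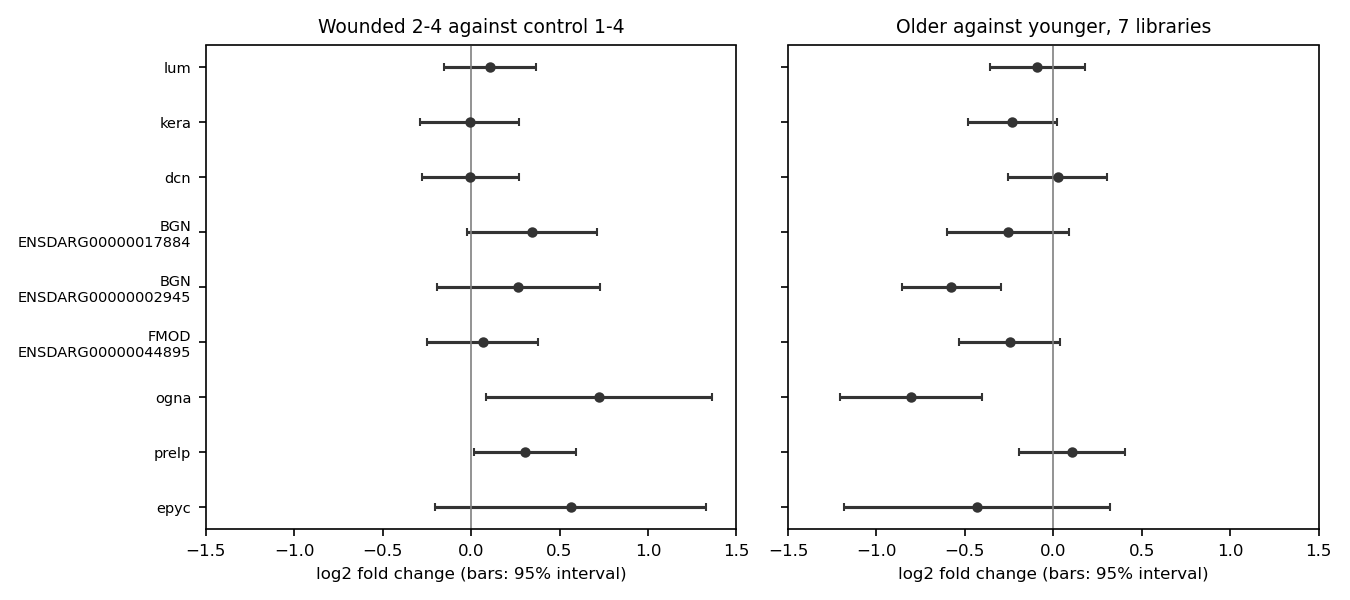
Log2 fold changes (points) with 95% intervals (bars) from edgeR for the 9 tested genes, after abrasion (left, wounded 2 to 4 against control 1 to 4) and with age (right, older against younger fish, adjusted for abrasion). On the left the intervals of kera, dcn and FMOD ENSDARG00000044895 centre near 0, and on the right those of BGN ENSDARG00000002945 and ogna lie below 0.

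Since the control and wounded libraries of a number shared a tank and an age, the change was also read within each of the 4 tanks, with wounded library 1 included. In 5 of the 9 genes (lum, both BGN copies, ogna and prelp) the wounded library was higher in all 4 tanks, and no gene was lower in all 4. Over all genes tested, 15.7% were higher and 15.1% lower in all 4 tanks. Wounded library 1 was above the highest control in 3 of the 9 (lum, BGN ENSDARG00000017884 and prelp), beside 27% of all genes. The log2 ratio of ogna was 0.33, 0.77, 0.50 and 0.76 in tanks 1 to 4, with the smallest ratio in tank 1. That of prelp was 0.59, 0.33, 0.48 and 0.10. For lum it was 0.75 in tank 1 and 0.01, 0.04 and 0.09 in the others, so that nearly all of its change lay in the tank of wounded library 1. For dcn it was 0.20 in tank 1 and from -0.10 to -0.04 in the others. The ratio of epyc was above 0 in tanks 1 to 3 (0.73, 0.90 and 0.37) and below it in tank 4 (-0.33).

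**Figure D3:**
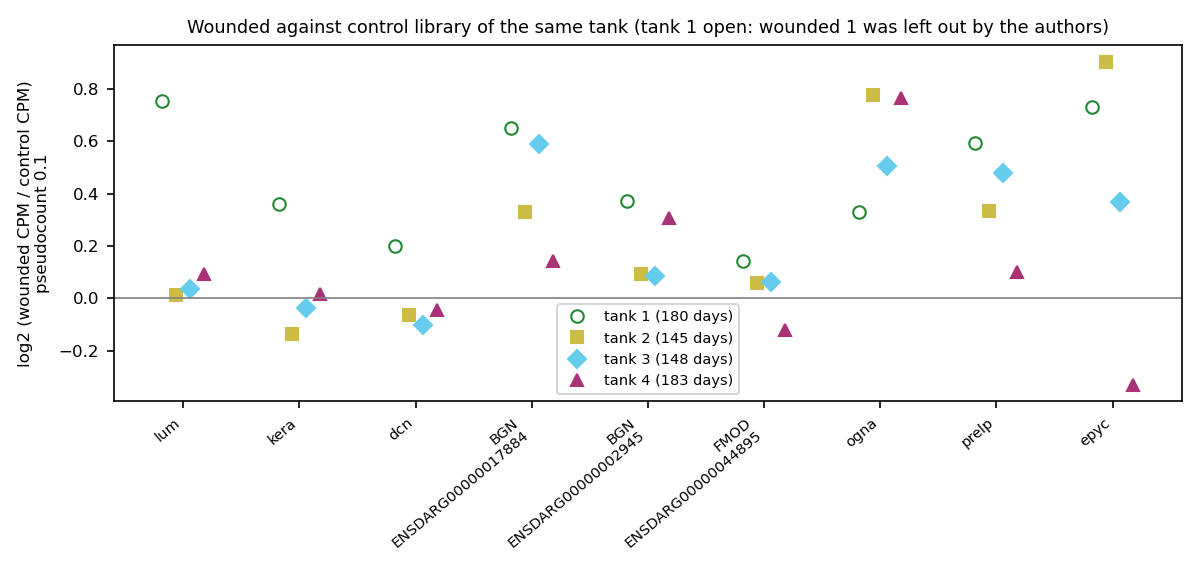
Log2 ratio of wounded to control CPM (vertical axis, pseudocount of 0.1 CPM) for each tested gene in each of the 4 tanks (symbols; tank 1, open, holds wounded library 1). All 4 points of ogna, prelp, lum and both BGN copies lie above 0, and lum stands out in tank 1 at 0.75.

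Age was compared between the younger (145 and 148 days) and the older fish (180 and 183 days), with abrasion in the model. Each age was 1 tank, so that age and tank cannot be told apart and the libraries of a tank are not independent of each other. None of the 9 genes passed an adjusted p of 0.05 in edgeR, where 0.238% of all 19761 genes tested passed (0.127% higher and 0.111% lower). At an unadjusted p under 0.05 there were 2, beside 8.69% of all genes. These were BGN ENSDARG00000002945 and ogna, both lower in older fish. In BGN ENSDARG00000002945 the younger control libraries averaged 122 CPM and the older ones 75.3. The younger wounded libraries averaged 129.6 CPM and the older ones, wounded library 1 included, 95.04 CPM. All 4 older libraries were below all 4 younger ones, wounded library 1 (90.9 CPM) included. Without wounded library 1 the log2 fold change was -0.58 (standard error 0.13, 95% interval -0.86 to -0.29, edgeR unadjusted p = 0.000962 and adjusted p = 0.167). For ogna the averages were 12.3 and 7.34 CPM in younger and older controls. In younger and older wounded corneas they were 19.2 and 10.6 CPM, wounded library 1 included. Again no older library reached a younger one (log2 fold change -0.81 without wounded library 1, standard error 0.18, edgeR unadjusted p = 0.00110 and adjusted p = 0.171). Such full separation of the 4 older from the 4 younger libraries, as lower, was seen in 1.88% of all genes. In DESeq2 both genes passed (adjusted p = 0.0154 for BGN ENSDARG00000002945 and 0.0115 for ogna), where 1.32% of genes passed (0.528% lower). They also passed in edgeR when every gene with a count was kept (adjusted p = 0.0156 and 0.00987), where 2.23% did (1.1% lower). In control libraries alone the log2 fold changes were -0.70 and -0.74, and neither gene passed (edgeR adjusted p = 0.861 and 0.99987).

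With 7 libraries kera, like BGN ENSDARG00000002945 and ogna, had all older values below the younger ones, which makes 3 of 9 where 7.1% of all genes did not overlap and 3.42% were lower (kera log2 fold change -0.23, 95% interval -0.49 to 0.02, edgeR adjusted p = 0.615). Wounded library 1, from 180-day-old fish, was at 180.3 CPM and so within the younger range. The values for lum (-0.09), dcn (0.02) and prelp (0.11) were close to 0. For BGN ENSDARG00000017884, FMOD ENSDARG00000044895 and epyc the log2 fold changes were -0.26, -0.25 and -0.43, with edgeR adjusted p from 0.632 to 0.794. The median of the 9 genes was -0.25, beside -0.02 for all genes tested. The effect of abrasion was not shown to differ between ages for any of the 9 genes (interaction in all 8 libraries, all edgeR adjusted p = 0.999987, where 0% of 20018 genes passed). None of the 9 had an unadjusted interaction p under 0.05, which 1.95% of all genes had, and DESeq2 called none.

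**Figure D4:**
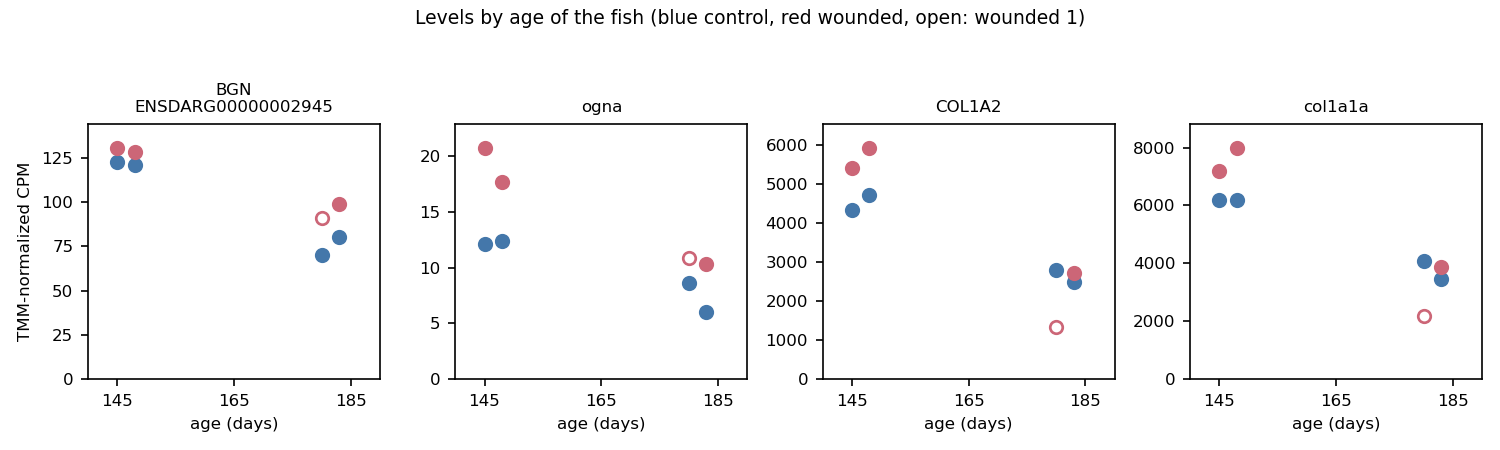
TMM-normalized CPM (vertical axes, starting at 0) against the age of the fish in days for BGN ENSDARG00000002945, ogna, COL1A2 and col1a1a, with control libraries in blue, wounded ones in red and wounded library 1 open. In each panel all libraries of 180 and 183 days lie below all libraries of 145 and 148 days.

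Collagens were counted with age as well. Of 49 stromal collagens and fibril partners tested, 3 fell with age and none rose (edgeR, where 0.111% of all genes fell). They were the type I collagen genes COL1A2 (log2 fold change -0.90, edgeR adjusted p = 0.00957), col1a1a (-0.82, adjusted p = 0.0121) and COL1A1 ENSDARG00000035809 (-0.84, adjusted p = 0.0161). These genes were chosen after their values were seen. The CPM of COL1A2 were 4326, 4725, 5408 and 5933 in the younger libraries and 2786, 2482, 2706 and 1327 in the older ones. Its call was lost without wounded library 4 (edgeR adjusted p = 0.146), and with all 8 libraries (0.0891). The other type I collagen calls were lost without the same library (adjusted p = 0.219 and 0.276), with all 8 libraries (0.0808 and 0.0917) and without control library 4 or wounded library 2, that of COL1A1 ENSDARG00000035809 also without control library 3. Of 29 cartilage and bone markers 4 also fell with age, and 16 had an unadjusted p under 0.05, as had 18 of the 49 collagens and fibril partners, beside 8.69% of all genes. The 4 calls were lost without wounded library 4 (edgeR adjusted p from 0.226 to 0.485) and 3 of them with all 8 libraries. That of COL2A1 was also lost without any other 1 of the 7 libraries (adjusted p from 0.0651 to 0.112), that of col9a1b without control library 1, 3 or 4 or wounded library 2 (0.0566 to 0.0883) and that of col10a1b without control library 2 or 4 (0.0694 and 0.0826). The cartilage and bone list summed to 3824 to 5514 CPM in younger and 2083 to 2925 CPM in older libraries. The part of cartilage and bone in the lower BGN and ogna values of older fish was not tested. Keratocyte and fibroblast markers (25 genes) summed to 11409 to 13583 CPM in younger and 11243 to 13918 CPM in older libraries, and none of 24 tested passed with age in edgeR, while 7 had an unadjusted p under 0.05.

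Genes that make, bind or cut these proteoglycans were counted in the comparison of wounded with control corneas. Of the other leucine-rich matrix proteins none of 8 tested passed in edgeR (2 at an unadjusted p under 0.05, and none in DESeq2). All 8 had a positive log2 fold change (median 0.26, beside 0.01 for all genes tested). Nearest to the threshold were ecm2 (0.43, edgeR adjusted p = 0.198) and aspn (0.56, adjusted p = 0.232). The gene aspn encodes asporin, a close relative of decorin, and rose with the tank as a block (edgeR adjusted p = 0.0333), where 2.71% of all genes rose. Its CPM were 23.5, 22.4, 32.1 and 16.4 in controls and 32.5, 45.4 and 27.4 in wounded libraries 2 to 4, with an overlap from control library 3. Of 46 genes that make glycosaminoglycan chains none passed in edgeR (median 0.01), with 8 at an unadjusted p under 0.05 (18.5% of all genes), and DESeq2 called 1 higher and 1 lower (9.29% of all genes). The lowest adjusted p were those of b3gnt7l, named after a transferase that builds keratan sulfate in mammals (log2 fold change -0.80, edgeR adjusted p = 0.0678), and of ugdh, whose enzyme makes the glucuronate precursor of the chains (1.18, adjusted p = 0.0680). In both genes, named for their low adjusted p, wounded libraries 2 to 4 lay outside the range of the controls, as in 17.5% of all genes tested.

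Of 49 stromal collagens and fibril partners, 1 rose after abrasion and none fell, where 0.734% of all genes rose. This was THBS1 ENSDARG00000103775, which encodes the matrix protein thrombospondin 1. It went from 435 ± 41.4 CPM (SD, n = 4) to 781 ± 171 CPM (SD, n = 3), by 0.84 on the log2 scale (edgeR adjusted p = 0.0329). In this list 48 of 49 values were positive (median 0.38, beside 0.01 for all genes tested). At an unadjusted p under 0.05 there were 15, beside 18.5% of all genes. The list summed to 24871 to 34091 CPM in younger and 14131 to 19283 CPM in older libraries. The wounded libraries compared hold more of the younger fish, and the part of age in these values was not tested. With the tank as a block 9 rose and none fell, where 2.71% of all genes rose. Of 25 matrix proteases and inhibitors adam8a, a membrane metalloprotease, rose (log2 fold change 1.11, edgeR adjusted p = 0.0452) and none fell, beside the same 0.734% of all genes. At an unadjusted p under 0.05 there were 7, where 18.5% of all genes were. With the block 5 rose (2.71% of all genes did). In the main fit all 25 values were positive (median 0.35, beside 0.01 for all genes tested). Genes of a list may move together, and the part of age or of the epithelium in these 25 values was not tested. Neither THBS1 nor adam8a passed in edgeR once control library 1 was left out (adjusted p = 0.0940 and 0.108), nor without control library 3 (0.105 and 0.132), wounded library 3 (0.138 and 0.164) or wounded library 4 (0.0598 and 0.0994), and adam8a also did not without wounded library 2 (0.0912).

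Among 30 TGF-beta and BMP genes tested, 3 rose and none fell (median 0.16), where 0.734% of all genes rose. At an unadjusted p under 0.05 there were 10, beside 18.5% of all genes. The gene ccn2a, which encodes connective tissue growth factor, went from 608 ± 80.7 CPM (SD, n = 4) to 1378 ± 153 CPM (SD, n = 3), by 1.17 on the log2 scale (edgeR adjusted p = 0.00517). Its call held without each of the 7 libraries in turn. The type II receptor gene tgfbr2a rose by 1.11 on the log2 scale (edgeR adjusted p = 0.0287), a call lost with all 8 libraries (0.148) and without control library 1 (0.0869), control library 3 (0.0944), wounded library 3 (0.138) or wounded library 4 (0.0581). Its level in wounded library 1 was 7.32 CPM, below its lowest control.

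Markers of other cell types were counted in the same comparison. None passed in edgeR among 24 keratocyte and fibroblast, 29 cartilage and bone, 23 corneal epithelium, 25 retina, 16 pigment cell, 19 leukocyte, 6 erythrocyte or 13 muscle markers tested, and no lens marker had enough counts. Of these 155 markers 28 had an unadjusted p under 0.05, beside 18.5% of all genes. The vascular endothelium list, counted below, is left out of the 155 because it held calls, so they do not stand for all markers. By list these were 4 of 24 keratocyte and fibroblast, 9 of 29 cartilage and bone and 7 of 23 corneal epithelium markers. The rest were 1 of 25 retina, 2 of 16 pigment cell, 3 of 19 leukocyte, 1 of 6 erythrocyte and 1 of 13 muscle markers. DESeq2 called 1 keratocyte and fibroblast, 2 cartilage and bone and 2 corneal epithelium markers (9.29% of all genes). With the tank as a block 3 keratocyte and fibroblast markers rose, 1 cartilage and bone marker rose and 2 fell, 1 corneal epithelium marker fell, and 1 marker each of pigment cells, erythrocytes and muscle rose. That fit called 5.22% of all genes, and 2.71% rose. The corneal epithelium markers summed to 113599 to 118141 CPM in controls and 103977 to 108317 CPM in wounded libraries 2 to 4, without overlap, and 7 of the 23 had a positive log2 fold change. Of 15 vascular endothelium markers flt1 and cldn5b rose, where 0.734% of all genes did, and 8 had an unadjusted p under 0.05. The list summed to 199.6 to 239.6 CPM in controls and 274 to 329 CPM in wounded libraries 2 to 4, without overlap. Among single genes 17.5% of all tested did not overlap. The calls of flt1 and cldn5b were both lost without control library 1, control library 3, control library 4 or any 1 of the wounded libraries, that of flt1 also without control library 2 (edgeR adjusted p from 0.0517 to 0.166). The part of the epithelium and of vessels in the ogna and prelp values was not tested.

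**Figure D5:**
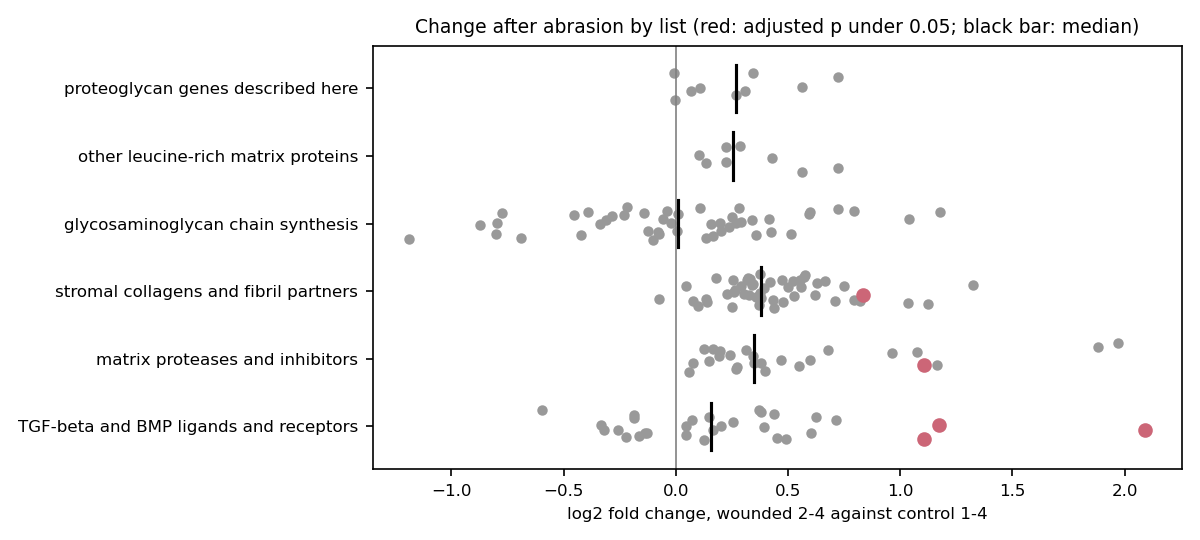
Log2 fold changes after abrasion (horizontal axis, wounded 2 to 4 against control 1 to 4) of the tested proteoglycan genes and of 5 lists of related genes, 1 point a gene (vertical scatter within a list is only for display), with red points for an edgeR adjusted p under 0.05 and black bars for medians. No point of the proteoglycan genes is red, and all 3 red points of the TGF-beta and BMP list lie to the right of 0.

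The members' profiles over all 8 libraries were also compared with those of every gene tested, by the mean absolute difference of centred log2 CPM. The gene most like ogna was twist1a (difference 0.1530), nearly level with klhl42 (0.1532). The gene most like BGN ENSDARG00000002945 was cep63 (0.0883). For dcn the nearest was atp1a3a (0.0434), for kera khnyn (0.0435), for lum MINK1 (0.0528), for prelp EDNRA (0.0434), for FMOD ENSDARG00000044895 LFNG (0.0461), for BGN ENSDARG00000017884 npm3 (0.0471) and for epyc TET1 (0.143). No member was among the 3 nearest genes of another member. With so many genes compared, some lie near any profile, and how near they would lie by chance was not tested.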

How the data were processed

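RNA of 8 libraries was measured. The authors deposited raw counts with no normalization, made from single-end reads by bcl2fastq 2.20.0.422, STAR 2.6.0c on GRCz11, and featureCounts on the Ensembl release 97 genes. Their processing notes also name Trimmomatic. For the strand option of featureCounts, the answer is not given in the sources used here. Antisense reads may thus be mixed in, and near-identical copies may share reads.

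Tests were run by edgeR 4.0.16, with DESeq2 1.42.0 as an alternative and limma 3.58.1 loaded by edgeR (R 4.3.3), and figures by matplotlib 3.10.9 (Python 3.11.15). The main test was edgeR's quasi-likelihood test after filterByExpr and TMM, fitted on the whole table, two-sided, and p was adjusted by Benjamini-Hochberg across the genes tested (threshold 0.05). The steps were run on simulated counts with a fixed dispersion, no tank effect and larger changes than those of the members. That run does not bear on the shared tanks or on changes as small as the members'. Intervals are 95% intervals of that fit. The p-values measure the spread between these pools of 3 fish.

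Of 32520 identifiers 29228 had a name. The names ogna and epyc came from the supplementary table, whose 1997 genes at hand each matched 1 identifier within 0.01%. Its fold changes and p-values are the authors' own and were not used. The identifiers of the BGN and FMOD pairs share a symbol. Reference gene lengths include introns and protein or promoter sequences were not at hand, so levels per length and sequences are not given, and the most similar gene is given for every tested member in place of the 3 most abundant ones.

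By the methods, age-matched control and wounded fish shared a tank, and each number has its own age in the labels. Residuals about the group mean correlated within a number at 0.162 (number 1), 0.245 (2), 0.224 (3) and 0.288 (4) (across genes, which are not replicates). Libraries of different numbers were not compared, so these values cannot show whether those of a tank are more alike. The block was tried as an alternative for the shared tanks, the methods naming none. Other alternatives were all 8 libraries, other scalings, filters and tests, age, and leaving out each library. The members and lists were chosen with earlier results of these data known. All members are named. Of each list up to 4 genes past the adjusted p are named, or the 2 nearest to it, except 1 gene of the TGF-beta and BMP list, which is not reported here.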

Additional observations from a re-analysis of the deposited data

Results flagged for a closer look

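In a test for a library far from the rest of its group, applied to the 4 control and the 4 wounded libraries of each of the 10 genes (20 groups, of which chance flags about 1 in 20), 4 groups were flagged. The lum level of control library 1 was low at 167 CPM, and that of wounded library 1 was high at 282 CPM. The FMOD copy ENSDARG00000010294 was at 0.0457 CPM in control library 2, which rests on 2 counts, and at 0.620 CPM in wounded library 4. Its other libraries held 0 or 2 counts, so the chance rate of 1 in 20 does not apply to the groups of this gene.

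Wounded library 1, which the comparison leaves out, was above the highest control library in 3 of the 9 tested genes. With 27% of all genes also above it, this is not particular to the members. The 3 were lum at 282 CPM (1.36 times the highest control), BGN ENSDARG00000017884 at 31.4 CPM (1.53 times) and prelp at 105 CPM (1.25 times). The same library had the lowest sum of corneal epithelium markers (74463 CPM) and of stromal collagens and fibril partners (14131 CPM), and their part in these values was not tested.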

How the results depend on the processing

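In edgeR and DESeq2 the count of members that passed after abrasion was 0 in every alternative but the block on replicate number, where it was 1 (ogna). With age it was 0 but for DESeq2 and for every gene with a count, where it was 2 each. DESeq2 and the setting with every gene with a count fitted 10 members, the others 9. Members with an interaction numbered 0 in all 3 alternatives, and the members' summed control level moved by less than its SD. Of 144 member values after abrasion 13 changed sign, and of 117 with age 6, all of them near 0. With all 8 libraries the log2 fold change of kera after abrasion was 0.0461 (0.0501 with the replicate block) and that of lum with age 0.0363. That of dcn after abrasion was 6.4e-06 with every gene with a count and 0.0041 with at least 10 counts in every library, and with age -0.0631 in control libraries only. That of FMOD ENSDARG00000044895 was -0.00865 with the replicate block. Leaving out 1 library gave -0.0654 to 0.0525 for kera, -0.0787 to 0.0592 for dcn and -0.0449 to 0.157 for FMOD ENSDARG00000044895 after abrasion, and -0.167 to 0.00381 for lum and -0.0657 to 0.153 for dcn with age.

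All genes that passed after abrasion numbered 259, against 989 with the replicate block, 805 with all 8 libraries and the block, 1319 in DESeq2, 480 with every gene with a count, 400 with age class as a covariate, and 17 to 456 without 1 library. List genes that passed numbered 5, against 19 with the block, 13 with all 8 libraries and the block, 21 in DESeq2, 13 with every gene with a count, 9 with at least 10 counts in every library, 9 with age class, and 2 to 11 without 1 library. With age 47 genes passed, against 24 with all 8 libraries, 11 in controls only, 316 in DESeq2, 564 with every gene with a count, and 7 to 50 without 1 library. After abrasion 36 passed without control library 1, 456 without control library 2, 24 without control library 3, 147 without wounded library 2, 17 without wounded library 3 and 56 without wounded library 4. With age 29 passed without control library 3, 27 without control library 4, 25 without wounded library 2 and 7 without wounded library 4. The least counted of the tested genes, epyc and ogna, rest on 176 to 704 and 261 to 848 counts per library.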
